A study of Danio rerio with 15 samples.

Results

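Zebrafish embryos lacking axin2 were set directly against embryos lacking nkd1, with 3 samples of each genotype among the 15 RNA sequencing samples of the study. The samples were taken by the genotype in their labels. Each sample pooled 10 embryos at 50% epiboly, an early gastrula stage in which the blastoderm is spreading over the yolk. The axin2-/- line was made in the TL strain and the nkd1-/- line in the Tu strain, both with guide RNAs and Cas9, and the double mutant axin2-/-;nkd1-/- came from a cross of the 2 lines. The groups were axin2-/-, nkd1-/-, the double mutant, TL and Tu, with 3 samples each. According to the series record, the replicates of a group shared their parents and were collected on separate days. Each group is therefore 1 family, and the p-values below measure the spread between collections, not between families. The alleles themselves are not described in the sources used here.

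Wnt signalling is read out through beta-catenin. Without a ligand, a complex of Axin, APC and the kinases GSK3 and CK1 marks beta-catenin for degradation, and binding of Wnt to Frizzled and Lrp6 receptors recruits Dishevelled and stops this. Axin2 is a Wnt-induced scaffold of that complex, and Nkd1 is a Wnt-induced protein that binds Dishevelled, so both act as feedback inhibitors. In the zebrafish gastrula, maternal beta-catenin sets up the dorsal organizer, and later Wnt signals at the margin favour ventral, lateral and posterior mesoderm.

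The strain changes together with the mutation when axin2-/- is set against nkd1-/-. Genes that differed between the mutants were therefore divided by the difference between unmutated TL and Tu embryos, which shares no sample with the mutant comparison. A gene was called when its adjusted p was under 0.05 in edgeR's quasi-likelihood test with Benjamini-Hochberg adjustment over all genes tested. It was placed in the class "same way" when TL minus Tu was also called with the same sign, and in the class "opposite way" when it was called with the other sign. The class "alike" needed TL minus Tu not called and a 90% confidence interval wholly within 1 of 0 on the log2 scale. Called genes that met none of these were left undecided. All log2 fold changes are axin2-/- minus nkd1-/- unless another pair is named, with standard errors (SE), and levels are counts scaled to an equal library size (CPM).

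Total counts ran from 44098543 to 68135442 per sample, with the deepest library in nkd1-/-. nkd1-/- replicate 2 stood apart from the other nkd1-/- samples. Of 87 called genes on the pathway and cell type lists below, it was the nkd1-/- sample farthest out in the direction of the call in 66 (75.9%), compared with 4240 of all 8067 called genes (52.6%), which were 37.3% of the genes tested. When it was left out, 63 of the 87 genes were still called and all 87 kept their direction. Of all 8067 called genes, 6308 were still called, and these 6308 all kept their direction. In that refit 6795 of 22226 genes tested (30.6%) were called. Calls lost without it are given beside the lists. Leaving out each of the 6 mutant samples in turn, the listed genes szl, ndr2 and SMAD5 lost their call in 5 of 6 refits, and GSK3A, FZD8, lhx1a, gdf3, SPRED1, apobb.1 and SMAD6 (ENSDARG00000031763) in 4 of 6. Markers of other tissues were also counted. For the enveloping layer, the outer epithelium of the embryo, 6 of 10 were called (60%, against 37.3% of all genes). All 6 were lower in axin2-/-. The summed level of the 10 was 8243 to 9955 CPM in axin2-/- and 9928 to 14320 CPM in nkd1-/-, with 7438 to 9498 CPM in TL and 9086 to 10932 CPM in Tu. Without nkd1-/- replicate 2, 2 of the 10 were called (20%, against 30.6% of all genes in that refit). The keratin genes krt4, krt5, krt8 and krt18a.1 were then not called. The part of this layer in the results below was not tested. Genes of the gastrula margin were present in every sample, among them tbxta at 547 to 698 CPM in axin2-/- and 691 to 1007 CPM in nkd1-/-. Of 10 listed markers of later stages, the muscle gene MYOD1 and the globin hbae1.1 had at most 4 counts and 1 count in any of the 15 samples. Others of that list were present, and 6 passed the filter. The summed level of these 6 was 147 to 202 CPM in axin2-/- and 93.2 to 240 CPM in nkd1-/-. It was 161 to 196 CPM in TL and 164 to 185 CPM in Tu. Of the 6, 0 were called, against 37.3% of all genes.

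The transcripts of the targeted genes did not separate the mutants. AXIN2 (ENSDARG00000100149) was at 100, 99.9 and 83.4 CPM in the axin2-/- samples, against 77.6, 100 and 81.8 CPM in the nkd1-/- samples. It was at 100.8, 111 and 106 CPM in the double mutant, at 68.4, 72.6 and 62.0 CPM in TL and at 56.7, 61.4 and 70.7 CPM in Tu. The mutant ranges overlapped, with a difference of 0.13 ± 0.12 (SE) on the log2 scale and an adjusted p of 0.427 by edgeR's quasi-likelihood test. All 9 mutant samples lay above all 6 strain samples. Set against its own strain, AXIN2 was higher by 0.48 in axin2-/- (edgeR adjusted p = 0.00809) and by 0.46 in nkd1-/- (edgeR adjusted p = 0.00826) on the log2 scale.

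NKD1 (ENSDARG00000020053) was at 18.7, 27.4 and 15.2 CPM in axin2-/-, against 17.8, 26.0 and 21.3 CPM in nkd1-/-. The ranges overlapped again, with a difference of -0.09 ± 0.19 (SE) on the log2 scale and an adjusted p of 0.755 by edgeR. It was at 21.5, 22.1 and 26.6 CPM in the double mutant, at 14.2, 16.5 and 14 CPM in TL and at 11, 12.5 and 13.7 CPM in Tu. Against its own strain NKD1 was higher by 0.81 in nkd1-/- (edgeR adjusted p = 0.00517), and the value in axin2-/- was 0.45 (edgeR adjusted p = 0.111). Counts over whole genes say nothing of a small lesion, so these levels neither check the genotype labels nor go against them.

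**Figure D1:**
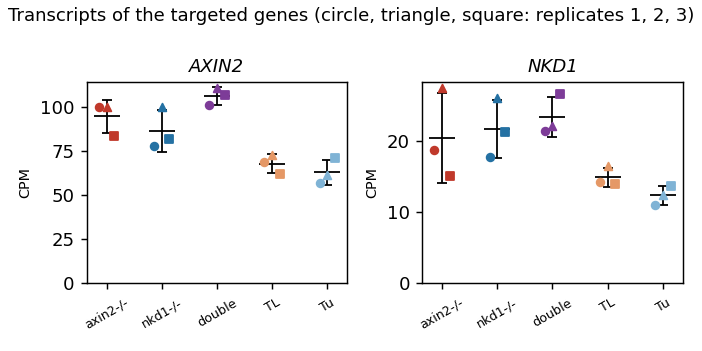
CPM of AXIN2 and NKD1 (y axis) in each of the 15 samples by group, with replicates 1, 2 and 3 as circle, triangle and square and the bars showing the mean and SD of 3 samples. The axin2-/- and nkd1-/- samples overlap for both genes, at 77.6 to 100 CPM for AXIN2 and 15.2 to 27.4 CPM for NKD1.

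The mutants differed in 8067 of 21614 genes tested (37.3%), of which 4036 (18.7%) were higher and 4031 (18.6%) lower in axin2-/-. The median absolute log2 fold change of the called genes was 1.11, with a median SE of 0.24. In 10117 genes (46.8%) the 3 axin2-/- samples did not overlap the 3 nkd1-/- samples. The mean distance between an axin2-/- and an nkd1-/- sample, over log2 CPM of all genes tested, was 195.2, and the distances within the groups averaged 108.5 in axin2-/- and 98.7 in nkd1-/-. The excess of 91.6 gave an exact two-sided permutation p of 0.1, the smallest that 3 samples against 3 can give. TL and Tu samples lay 184.3 apart on the same scale, and 6712 genes (31.1%) were called between them.

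The strain difference went along with the mutant difference at part of the genes. TL minus Tu was called the same way in 2412 genes, 11.2% of the genes tested and 29.9% of those called between the mutants. The strains were alike in 3252 called genes, 15% of those tested and 40.3% of those called. They were called the opposite way in 837 genes (3.87% of those tested), and 1566 genes were undecided. The undecided genes were mostly weakly expressed, with a median level of 0.65 CPM over the samples against 16.6 CPM for the genes with alike strains.

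A gene that differed between the strains was more often called between the mutants than one that did not. Of the 6712 genes called between TL and Tu, 3249 (48.4%) were called between axin2-/- and nkd1-/-, and 2412 of these (74.2%) had the same sign. Of 8893 genes with alike strains, 3252 (36.6%) were called between the mutants, and of the 6009 left over, 1566 (26.1%) were. The 3 sets also differed in level, with a median of 5.61 CPM in the genes called between the strains, 15.2 CPM where they were alike and 0.39 CPM in the rest. The median SE of the mutant difference was 0.25, 0.18 and 0.59 in the same order. Both tests drew each gene's spread from the same fit of 15 samples, and the part of this in the shares was not tested. Across the 21614 genes, the mutant and strain differences had a Pearson r of 0.31 and a Spearman rho of 0.24. Genes are not independent replicates, so no p is given.

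**Figure D2:**
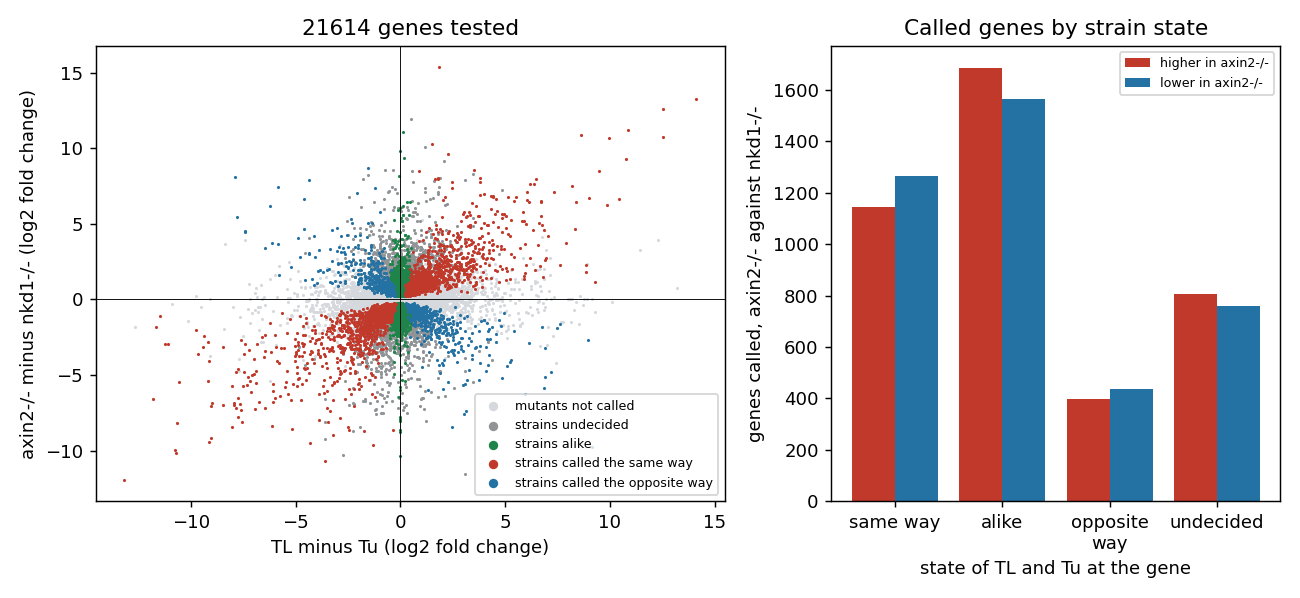
Left, log2 fold change of axin2-/- minus nkd1-/- (y axis) against TL minus Tu (x axis) for 21614 genes, coloured by class. Right, the number of called genes that were higher or lower in axin2-/- in each class (y axis), with 1145 and 1267 in the class same way, 1687 and 1565 in the class alike, 399 and 438 in the class opposite way, and 805 and 761 undecided.

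Whether the mutant difference departed from the strain difference was tested by their difference, (axin2-/- minus nkd1-/-) minus (TL minus Tu). It was called in 5576 genes (25.8%), 2846 positive and 2730 negative. Of the 2412 genes that the strains called the same way, it was called in 426, in 248 of them with a mutant difference larger than the strain difference and in 178 with a smaller one. The departure was not called in the remaining genes of that class, which does not show that the 2 differences were equal. Of the 3252 genes with alike strains, 1617 departed. That class requires a called mutant difference and a bounded strain difference, so its definition favours a departure. The difference of differences uses all 12 samples of both comparisons and has a larger SE, with a median of 0.35 in its called genes.

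Genes that the strains called the same way include some that are close to off in one line and its strain. SNCG, a gamma-synuclein gene, was at 14.7, 6.95 and 2.16 CPM in axin2-/-, against 0.019, 0.021 and 0.044 CPM in nkd1-/-. It was at 10.9 to 12.1 CPM in TL and 0.10 to 0.15 CPM in Tu. The difference was 7.97 ± 0.67 (SE) on the log2 scale between the mutants, with an edgeR adjusted p of 1.29e-07, and 6.47 ± 0.57 between the strains. The departure had an edgeR adjusted p of 0.325.

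FLNC, which encodes the actin crosslinker filamin C, followed the same order. It was at 170, 36.6 and 38.6 CPM in axin2-/-, against 0.45, 0.66 and 0.64 CPM in nkd1-/-, and its TL and Tu samples lay at 77.5 to 189 CPM and 0.60 to 0.93 CPM. The double mutant was split, at 0.73, 88.2 and 48.1 CPM. KIT, a receptor tyrosine kinase gene, was at 1.85, 3.68 and 5.27 CPM in axin2-/- and at most 0.083 CPM in nkd1-/-, with 2.42 to 2.57 CPM in TL and 0.038 to 0.18 CPM in Tu. ENTREP1 was higher in axin2-/- (20.8, 76.1 and 54.9 CPM) than in TL (6.56 to 7.59 CPM), and its mutant difference exceeded the strain difference by 2.51 on the log2 scale (edgeR adjusted p = 0.00551).

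The largest falls of that class were larger between the mutants than between the strains. vipr1a, a receptor gene for vasoactive intestinal peptide, had 1 count, 1 count and 0 counts in axin2-/-, against 13.2, 11.4 and 12.5 CPM in nkd1-/-. It was at 12.1 to 12.3 CPM in TL and 24.0 to 32.8 CPM in Tu. With 2 counts in axin2-/- the ratio of nkd1-/- to axin2-/- was 931, with a 95% counting interval of 252 to 7530. znf1156, a zinc finger gene, was at 0.058, 0.10 and 0.11 CPM in axin2-/- and at 31.9, 40.6 and 35.5 CPM in nkd1-/-, while TL had 23.4 to 26.9 CPM and Tu 29.5 to 38.6 CPM. Its strain difference only just met the threshold (-0.37 ± 0.14, edgeR adjusted p = 0.0498), and its departure was -8.25 (edgeR adjusted p = 4.97e-12).

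HAPLN4, which encodes a link protein of the hyaluronan matrix, was at 0.13, 0 and 0.065 CPM in axin2-/-, against 50.6, 45.3 and 55.2 CPM in nkd1-/-. TL replicate 1 was at 0.19 CPM and the other TL samples at 7.55 and 5.40 CPM, so TL was not uniform, and Tu was at 78.8 to 98.4 CPM. ftr15, a finTRIM gene, was at most 0.086 CPM in axin2-/- and 23.8, 9.25 and 13.0 CPM in nkd1-/-. It was at most 0.23 CPM in every TL, Tu and double mutant sample. The strain call of ftr15 (-2.50 ± 0.88, edgeR adjusted p = 0.0383) rested on 5 counts in TL and 27 in Tu. znf1156 and ftr15 belong to large gene families, and how reads shared by copies were counted is not given in the sources used here.

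Where the strains were alike, the genes called between the mutants can be ordered by which mutant left the level that TL and Tu shared. In 1870 of the 3252 genes (57.5%) nkd1-/- was farther from the mean of the strains, and in 1382 (42.5%) axin2-/- was. Over all genes tested nkd1-/- was farther in 51.9%. The median absolute log2 fold change was 0.75 between the mutants and 0.18 between the strains, so most of these were moderate differences.

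In some of the largest rises, axin2-/- stayed at the strain level and nkd1-/- was low. rxfp3.3a1, a gene of the relaxin peptide receptors, was at 11.8, 9.04 and 8.62 CPM in axin2-/-, against 0.075, 0.10 and 0.15 CPM in nkd1-/-. It was at 7.82 to 11.6 CPM in TL and 7.25 to 8.92 CPM in Tu, and at most 0.092 CPM in the double mutant. This was a log2 fold change of 6.44 ± 0.32 with an edgeR adjusted p of 2.95e-10. The histone gene hist1h2a2 (5.38 ± 0.37) and HDAC7, a class IIa histone deacetylase gene (4.20 ± 0.32), had the same order, with HDAC7 at 12.8, 10.9 and 14.7 CPM in axin2-/- and 0.60, 0.52 and 0.93 CPM in nkd1-/-.

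In others, axin2-/- was far above both strains. CHSY3, a chondroitin sulfate synthase gene, was at 12.6, 13.2 and 25.8 CPM in axin2-/-, against 0.21, 0.39 and 0.26 CPM in nkd1-/-. TL and Tu were at 0.51 to 0.89 CPM and 0.33 to 1.12 CPM. On the log2 scale the mutants differed by 5.91 ± 0.50 (SE), with an adjusted p of 1.38e-07 in edgeR's test. PLOD2, which encodes a lysyl hydroxylase of collagen, rose by 4.24 ± 0.43, and ADGRL1, a latrophilin adhesion receptor gene, by 5.23 ± 0.50. At ADGRL1 nkd1-/- was also called below Tu, at -1.58 on the log2 scale (edgeR adjusted p = 0.0391). The same difference was -1.31 at CHSY3 and -0.67 at PLOD2, neither of them called. In PLOD2 and ADGRL1 the double mutant lay on average between the single mutants, at 2.04 to 3.69 CPM for PLOD2 and 0.71 to 0.76 CPM for ADGRL1. At CHSY3 the double mutant was at 0.75, 0.18 and 0.50 CPM, overlapping nkd1-/- and both strains.

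rln3a, a relaxin-3 peptide gene, had no count in any nkd1-/-, TL or Tu sample and was at 2.0, 2.05 and 2.59 CPM in axin2-/-. Against the floor of 3 counts per library in nkd1-/- it was at least 41.0-fold higher in axin2-/-. The double mutant was higher still, at 6.31, 6.92 and 8.10 CPM. RXFP2, another relaxin family receptor gene, differed on both sides. It was at 3.02, 5.92 and 7.02 CPM in axin2-/-, against 0.11, 0.17 and 0.13 CPM in nkd1-/-, with 1.21 to 1.75 CPM in TL and 1.81 to 1.95 CPM in Tu.

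rxfp3.3a1, hist1h2a2 and the znf genes named here belong to multigene families, so reads shared between copies make their values uncertain. Of the 3252 genes of the class, 10 had no count in any of the 6 strain samples, rln3a among them. For rln3a the strain difference was fitted as 0 with an SE of 0. Its interval thus had no width, and the bound for alike strains was met through the absence of counts.

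The largest falls showed the same kinds of order. znf1020, a zinc finger gene, was at 2.10, 1.99 and 2.94 CPM in axin2-/-, against 72.8, 73.2 and 65.8 CPM in nkd1-/-, with 32.1 to 40.2 CPM in TL and 35.0 to 52.9 CPM in Tu. The fitted difference was -4.92 ± 0.21 (SE) on the log2 scale, at an adjusted p of 6.68e-11 by edgeR. znf1146 (-2.68 ± 0.25) and FKBP9, an endoplasmic reticulum prolyl isomerase gene (-2.80 ± 0.33), were also below both strains in axin2-/-. nkd1-/- was in turn above all strain samples at znf1020 and at FKBP9, where it had 4.10 to 4.30 CPM against at most 2.75 CPM. znf1146 was at 0.67, 0.52 and 0.48 CPM in axin2-/- and 3.70, 3.84 and 3.20 CPM in nkd1-/-, with TL and Tu at 3.21 to 3.53 CPM and 2.71 to 5.03 CPM.

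At CDH23 and BCO2, nkd1-/- stood above all unmutated samples and axin2-/- was not called against TL. CDH23, a cadherin gene known for the tip links of hair cells, was at 0.90, 0.81 and 1.34 CPM in axin2-/-, against 8.53, 14.2 and 10.9 CPM in nkd1-/-. TL and Tu were at 0.68 to 1.14 CPM and 0.72 to 1.52 CPM, and the double mutant at 8.04 to 10.1 CPM. BCO2, a carotenoid-cleaving oxygenase gene, was at 0.21, 0.12 and 0.30 CPM in axin2-/- and 3.87, 3.37 and 4.19 CPM in nkd1-/-, with at most 0.66 CPM in the strains.

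kras, FBXO31 and ATM were low in axin2-/- and high in nkd1-/- relative to the strains. kras, a small GTPase gene of the Ras pathway, was at 7.52, 6.58 and 5.62 CPM in axin2-/-, against 70.1, 41.1 and 58.4 CPM in nkd1-/-. TL and Tu were at 14.6 to 15.7 CPM and 9.50 to 17.7 CPM, and the mutants differed by -3.10 ± 0.25 (SE) on the log2 scale, with an edgeR adjusted p of 7.27e-08. ATM, the kinase gene of the DNA damage response, was at 1.48, 1.41 and 1.66 CPM in axin2-/- and 6.87, 12.2 and 10.8 CPM in nkd1-/-, with 2.43 to 3.09 CPM over the strain samples. FBXO31, which encodes an F-box protein of a ubiquitin ligase, fell by 3.48 ± 0.39, and its double mutant samples, at 0.59 to 1.67 CPM, overlapped the strain samples at 0.83 to 1.91 CPM.

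**Figure D3:**
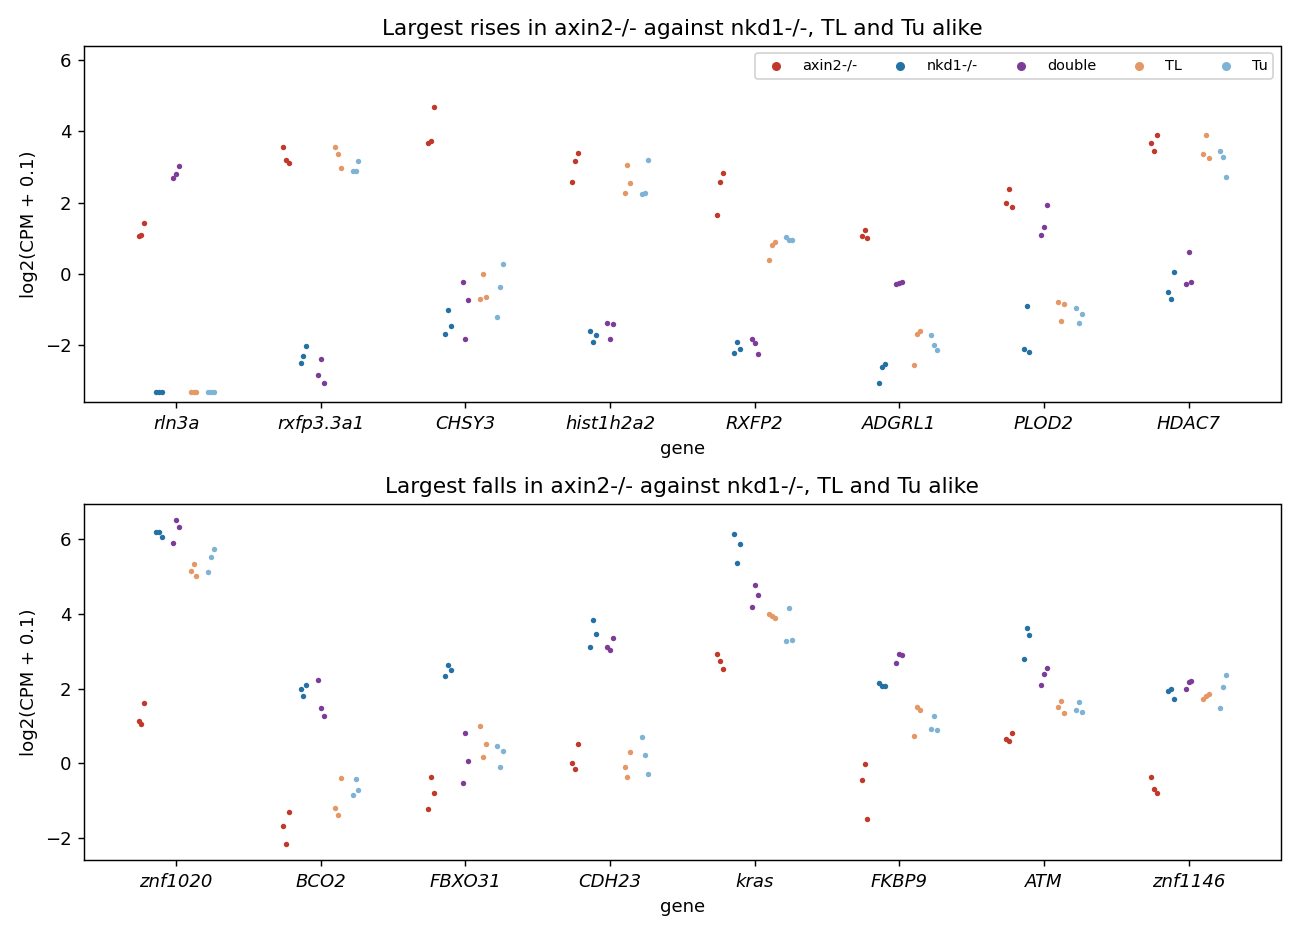
Levels as log2 of CPM plus 0.1 (y axis) in every sample of the 16 named genes for which TL and Tu were alike (x axis), rises above and falls below. In the double mutant, HDAC7 and rxfp3.3a1 lie with nkd1-/-, while rln3a lies above axin2-/-.

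The double mutant was closer to nkd1-/- than to axin2-/- in 2603 of the 3252 genes with alike strains (80.0%), and in 66.3% of all genes tested. On a line with nkd1-/- at 0 and axin2-/- at 1, its median place in the alike class was 0.11. The share was 73.6% in the class same way and 75.7% in the class opposite way. These shares describe group means only. They cannot be told apart from the strain makeup of the cross, since the double mutant descends from both strains.

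At 837 genes the mutants differed against the strain difference, and the departure was called in all 837, a count that the 2 opposite calls largely fix. MATCAP1, a gene for a tubulin carboxypeptidase, was at 4.50, 3.35 and 5.04 CPM in axin2-/-, against 0.038, 0.041 and 0.015 CPM in nkd1-/-. It was at 0.87 to 1.28 CPM in TL and 3.82 to 5.34 CPM in Tu, so it was lower in nkd1-/- than in either strain. mcama, a cell adhesion gene of the immunoglobulin family, was at 16.7, 9.04 and 7.57 CPM in axin2-/- and 0.11, 0.14 and 0.31 CPM in nkd1-/-. It was at most 0.74 CPM in the strains and at 22.0 to 28.1 CPM in the double mutant. Its strain difference only just met the threshold (-0.96 ± 0.36, edgeR adjusted p = 0.0493). atp1a1a.3, a sodium pump subunit gene, was at 6.83, 3.73 and 3.61 CPM in axin2-/- and had 3 counts in nkd1-/-. The ratio was 262 with a 95% counting interval of 92.6 to 1321. TL was at 0.035 to 0.057 CPM and Tu at 0.43, 0.095 and 2.62 CPM, so Tu was not uniform at this gene.

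ITGA10, an integrin alpha chain gene, was at 1.94, 0.56 and 0.15 CPM in axin2-/-, against 21.6, 65.6 and 21.8 CPM in nkd1-/-. The strains ran the other way, at 6.97 to 9.64 CPM in TL and 0.42 to 0.89 CPM in Tu. The log2 fold change was -5.33 ± 0.63 between the mutants and 3.77 ± 0.62 between the strains. The ubiquitin ligase family genes herc56.3 (-5.66 ± 0.78) and herc56.4 (-4.50 ± 0.49) were also low in axin2-/- while TL lay above Tu, and as members of a large family they may share reads.

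Among 20 tested genes of Wnt feedback and of the destruction complex, 6 were called (30%, against 37.3% of all genes), 1 higher and 5 lower in axin2-/-. The median log2 fold change of the list was -0.09, against -0.002 over all genes tested. The scaffold genes were not called, with AXIN1 at -0.03 ± 0.11 and APC at 0.17 ± 0.13. With nkd1-/- replicate 2 left out, 5 genes were called (25%, against 30.6% of all genes in that refit).

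gsk3bb (ENSDARG00000052468), a GSK3-beta gene by its symbol, had the largest difference of the list. It was at 0.058, 0.021 and 0.022 CPM in axin2-/-, against 2.32, 2.85 and 2.69 CPM in nkd1-/-. TL and Tu were at most 0.041 CPM, and the double mutant was at 4.11, 3.0 and 3.91 CPM. All samples of the groups with the nkd1 mutation were thus above all samples without it. axin2-/- minus nkd1-/- was -6.17 ± 0.40 (SE) on the log2 scale, with an edgeR adjusted p of 5.59e-09. It was undecided by class, since the 90% interval of its strain difference reached 1.14.

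GSK3B (ENSDARG00000017803), the other beta gene, was at 9.0, 14.4 and 11.5 CPM in axin2-/-, against 18.2, 24.2 and 23.7 CPM in nkd1-/-. The strains ran the opposite way, at 17.7 to 21.5 CPM in TL and 10.4 to 13.6 CPM in Tu. GSK3A (ENSDARG00000015681; -0.28 ± 0.10) and CSNK1A1, the casein kinase 1 alpha gene (-0.28 ± 0.07), fell slightly, and the call of GSK3A was lost without nkd1-/- replicate 2 (edgeR adjusted p = 0.163). Of the secreted inhibitors, frzb was lower at 7.48, 10.3 and 7.44 CPM in axin2-/-, against 11.7, 19.0 and 18.4 CPM in nkd1-/-. dkk1b, an Lrp6 antagonist gene, was higher at 53.3, 50.5 and 51.2 CPM in axin2-/-, against 34.8, 22.0 and 36.4 CPM in nkd1-/- (0.73 ± 0.19, edgeR adjusted p = 0.00555).

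Of 35 tested genes for Wnt ligands, receptors and transducers, 16 were called (45.7%, against 37.3% of all genes), 3 higher and 13 lower in axin2-/-, with a median log2 fold change of -0.22. Frizzled receptor genes made up 5 of the falls. Other tested Frizzled genes were not called, namely FZD3 (ENSDARG00000058692), FZD7 (ENSDARG00000027589), FZD8 (ENSDARG00000045444) and FZD9 (ENSDARG00000014673). FZD7 (ENSDARG00000060004) was at 103, 135 and 107 CPM in axin2-/-, against 191, 355 and 243 CPM in nkd1-/-, with 153 to 175 CPM in TL and 136 to 175 CPM in Tu. FZD7 differed by -1.19 ± 0.18 (SE) on the log2 scale, with an edgeR adjusted p of 6.87e-05, and it departed from the strain difference (edgeR adjusted p = 0.000948).

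FZD10 was at 3.94, 4.64 and 4.02 CPM in axin2-/-, against 10.8, 17.3 and 13.5 CPM in nkd1-/- (-1.72 ± 0.20). The strains differed the same way at FZD10 but by less, at -0.62 ± 0.20. FZD3 (ENSDARG00000021664) fell by 0.97 ± 0.25, and FZD5 and FZD8 (ENSDARG00000038569) fell against a strain difference in the opposite direction. The coreceptor genes LRP6 (-0.70 ± 0.17) and RYK (-0.62 ± 0.13) and the ligand gene WNT5B (-0.93 ± 0.18) were lower with the strains alike.

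Of the 5 listed transcription factor genes that act with beta-catenin, 4 fell, and TCF7L1 was not called (-0.22 ± 0.17). LEF1 was at 16.4, 25.8 and 27.2 CPM in axin2-/-, against 31.7, 65.0 and 39.4 CPM in nkd1-/-, with 14.5 to 18.9 CPM in TL and 11.6 to 16.4 CPM in Tu. The falls were 0.97 ± 0.23 for LEF1, 1.26 ± 0.29 for TCF7, 1.89 ± 0.52 for TCF7L2 and 0.70 ± 0.15 for the repressor gene tcf7l1b. TLE3 (ENSDARG00000002787), a Groucho corepressor gene, fell by 0.71 ± 0.18, while TLE3 (ENSDARG00000069006) was not called. TL was above Tu at TCF7 (1.47 ± 0.29), so the mutants differed there in the opposite direction.

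The 3 genes higher in axin2-/- were DVL3 (ENSDARG00000103462), a Dishevelled gene, PRICKLE1 (ENSDARG00000045694), a planar polarity gene, and the ligand gene WNT11. DVL3 was at 1.13, 0.91 and 0.80 CPM in axin2-/-, against 0.15, 0.21 and 0.23 CPM in nkd1-/- (2.25 ± 0.38, edgeR adjusted p = 0.000232). The other identifiers of these symbols, DVL3 (ENSDARG00000015707) and PRICKLE1 (ENSDARG00000040649), were tested and not called. Leaving out nkd1-/- replicate 2 gave 15 calls (42.9%, against 30.6% of all genes in that refit), 5 higher and 10 lower. FZD5, FZD8 and TCF7L2 were then no longer called. Both listed identifiers of WNT8A, the main Wnt ligand gene of the gastrula margin, had 0 counts in all 15 samples, so nothing can be said of its level.

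Of 30 tested Wnt target genes, 11 were called (36.7%), close to the 37.3% of all genes. They were unequal in direction, with 10 lower and 1 higher in axin2-/-, and the median log2 fold change of the list was -0.18. msgn1, a bHLH gene of the presomitic mesoderm, had the largest fall. It was at 19.5, 37.3 and 17.7 CPM in axin2-/-, against 38.6, 114 and 59.7 CPM in nkd1-/-. TL was at 15.7, 24.9 and 16.5 CPM and Tu at 12.5, 18.3 and 25.4 CPM, and the double mutant at 67.9 to 74.3 CPM. The lowest nkd1-/- sample was just above the highest axin2-/- sample, and the difference was -1.51 ± 0.35 (SE) on the log2 scale, with an edgeR adjusted p of 0.00248.

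SP5, a Wnt-induced zinc finger gene, was at 44.8, 37.2 and 33.2 CPM in axin2-/-, against 54.0, 74.4 and 71.3 CPM in nkd1-/-. TL and Tu were at 34.6 to 41.8 CPM and 33.7 to 38.3 CPM, so axin2-/- was at about the strain level. The fall of 0.79 ± 0.14 departed from the strain difference of 0.09 ± 0.14 (edgeR adjusted p = 0.00306). sp5l, its paralogue, was at 95.8, 189 and 94.7 CPM in axin2-/- and 182, 302 and 294 CPM in nkd1-/-, with 49.3 to 86.3 CPM in TL and 60.9 to 132 CPM in Tu. It was above its own strain by 0.93 in axin2-/- (edgeR adjusted p = 0.0329) and by 1.5 in nkd1-/- (edgeR adjusted p = 0.00125).

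The other targets that fell were GREB1 (-1.44 ± 0.34), IRX1 (ENSDARG00000056594; -1.40 ± 0.34), the posterior homeobox gene cdx4 (-1.02 ± 0.30) and the ventral repressor genes ved (-0.43 ± 0.12) and vent (-0.32 ± 0.10), along with LEF1 and TCF7. None of the 11 genes was called the same way between the strains. vent came close, with a strain difference of -0.26 ± 0.10 (edgeR adjusted p = 0.0544). tbxta, the notochord and tail mesoderm T-box gene, was not called (-0.37 ± 0.15, edgeR adjusted p = 0.0564).

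Of the Wnt targets, 12 were called without nkd1-/- replicate 2 (40%, against 30.6% of all genes in that refit), 9 lower and 3 higher. In it cdx4 was lost (edgeR adjusted p = 0.135). sp5l was lost without axin2-/- replicate 3 (edgeR adjusted p = 0.0532), and vent without any one of 3 samples, axin2-/- replicate 1 or nkd1-/- replicates 1 or 3. nkd1-/- replicate 2 was the highest nkd1-/- sample for msgn1, LEF1, SP5, sp5l and cdx4.

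**Figure D4:**
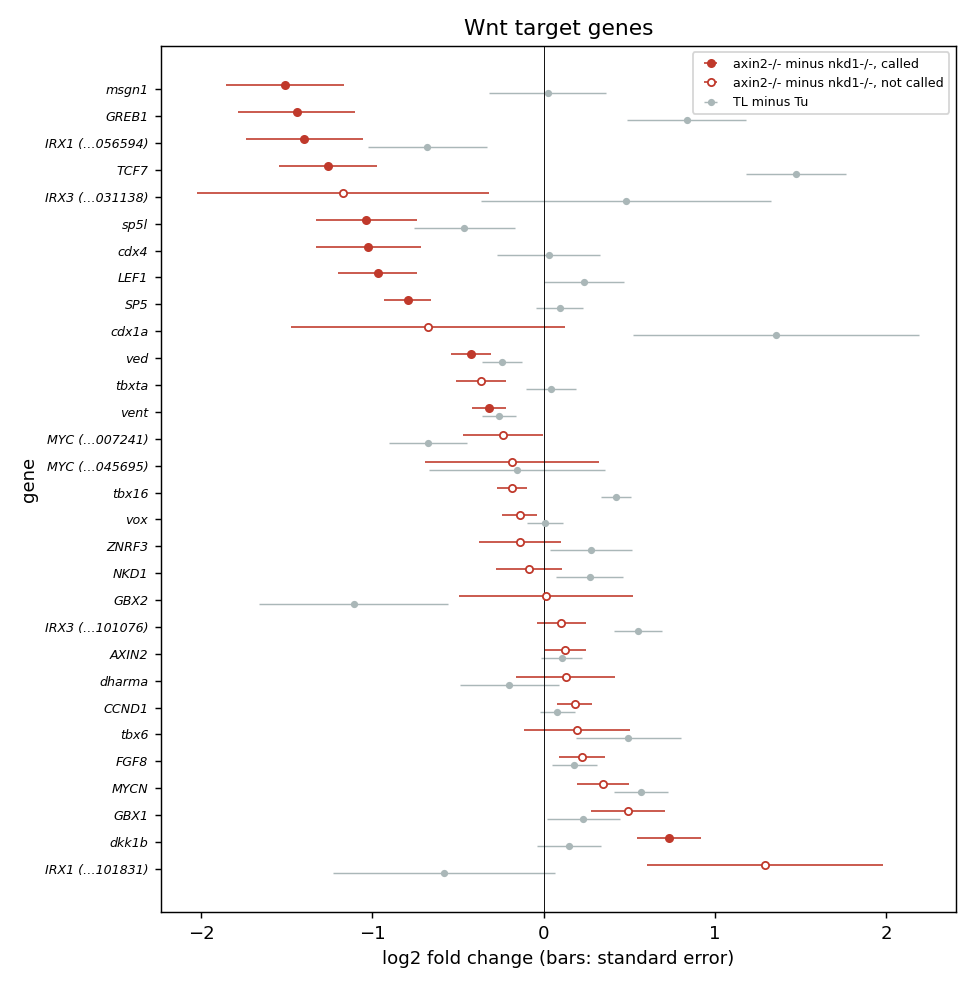
Log2 fold change (x axis, bars show the SE) of 30 Wnt target genes (y axis) for axin2-/- minus nkd1-/-, with filled circles for called genes, and for TL minus Tu in grey. The called genes are 10 lower and 1 higher in axin2-/-, and the grey points of msgn1, cdx4 and SP5 lie close to 0.

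Of 26 tested genes of the ventral side and of BMP signalling, 15 were called (57.7%, against 37.3% of all genes), 14 lower and 1 higher in axin2-/-, with a median log2 fold change of -0.39. The falling genes ved, vent and cdx4 are also on the list of Wnt targets above. Other lists share genes too, so their counts are not independent. In pools of whole embryos, fewer cells of a type and less RNA per cell cannot be told apart. BMP4, a ventralizing ligand gene, was at 26.2, 29.7 and 21.6 CPM in axin2-/-, against 52.1, 61.3 and 46.6 CPM in nkd1-/-. TL was at 42.6 to 54.7 CPM, Tu at 50.3 to 58.6 CPM and the double mutant at 52.4 to 60.5 CPM, so the axin2-/- samples were lower than all samples of the other 4 groups. This was a log2 fold change of -1.04 ± 0.14 with an edgeR adjusted p of 2.55e-05.

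SMAD1, a signal transducer gene, fell by 1.57 ± 0.34 and SMAD5 by 0.22 ± 0.08. The inhibitory SMAD genes SMAD6 (ENSDARG00000053209; -1.10 ± 0.28) and SMAD7 (-0.62 ± 0.15) fell too. ID3, a BMP target gene, was at 53.2, 52.7 and 28.4 CPM in axin2-/-, against 72.9, 122 and 92.0 CPM in nkd1-/-, but TL (21.0 to 29.6 CPM) was also below Tu (58.7 to 89.0 CPM). The difference was -1.10 ± 0.23 between the mutants and -1.43 ± 0.23 between the strains. BMPER, a BMP-binding protein gene, likewise followed the strains, at -1.0 ± 0.23 between the mutants and -1.02 ± 0.23 between TL and Tu.

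GATA2 (-0.92 ± 0.19) and TFAP2C (-0.43 ± 0.12), genes of ventral ectoderm, fell although TL was above Tu at both. szl, a sizzled gene that feeds back on BMP through Chordin, was at 18.8, 20.7 and 19.5 CPM in axin2-/- and 32.0, 42.9 and 20.3 CPM in nkd1-/-. Both were below all strain samples, which ran from 76.9 to 136 CPM. bmp7a was the one gene of the list that rose, at 382, 330 and 343 CPM in axin2-/- against 231, 276 and 252 CPM in nkd1-/- (0.47 ± 0.11). Without nkd1-/- replicate 2, 9 genes of the list were called (34.6%, against 30.6% of all genes in that refit), 8 lower and 1 higher, and cdx4, both SMAD6 genes, SMAD5, TFAP2C and szl were lost.

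Organizer genes went both ways. Of 20 tested, 8 were called (40.0%, near the 37.3% of all genes), 5 higher and 3 lower in axin2-/-, with a median of 0.09. The central organizer genes chrd (0.28 ± 0.13), which encodes the BMP antagonist Chordin, and GSC (0.05 ± 0.11) were not called. Higher were noto, a notochord homeobox gene (0.55 ± 0.10), admp, a BMP-like organizer ligand gene (0.71 ± 0.15), CYP26A1, a retinoic acid hydroxylase gene (0.68 ± 0.18), the Nodal ligand gene ndr2 (0.38 ± 0.14) and dkk1b. noto was at 65.4, 56.1 and 64.3 CPM in axin2-/-, against 42.8, 39.8 and 44.4 CPM in nkd1-/-, while TL was below Tu (-0.37 ± 0.10).

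FOXA2, a forkhead gene of axial mesoderm and endoderm, was at 6.19, 6.33 and 7.85 CPM in axin2-/-, against 13.1, 20.7 and 16.4 CPM in nkd1-/-. TL, at 6.79 to 7.59 CPM, and Tu, at 6.29 to 7.69 CPM, lay within the axin2-/- range, and the double mutant was at 16.7 to 19.8 CPM. The fall of 1.30 ± 0.17 (SE, edgeR adjusted p = 2.11e-05) departed from the strain difference (edgeR adjusted p = 0.000757). frzb and lhx1a were the other genes of the list that fell. Without nkd1-/- replicate 2, 7 organizer genes were called (35%, against 30.6% of all genes in that refit), and lhx1a and ndr2 were lost.

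Of 27 tested mesoderm, endoderm and Nodal genes, 11 were called (40.7%, near the 37.3% of all genes), 3 higher and 8 lower in axin2-/-, with a median of -0.18. The same counts were found without nkd1-/- replicate 2, where 30.6% of all genes were called. The members were not all the same, since ndr2 lost its call in that refit (edgeR adjusted p = 0.0959) and another gene gained one. The endoderm genes SOX17 and sox32 were among the falls, while GATA5, GATA6 and mixl1 of the same list were not called. SOX17 was at 3.10, 3.79 and 2.16 CPM in axin2-/-, against 5.09, 11.9 and 9.63 CPM in nkd1-/-, with 2.22 to 5.0 CPM over the strain samples (-1.55 ± 0.30, edgeR adjusted p = 0.000658). sox32, its upstream activator in zebrafish, was at 79.3, 117 and 72.3 CPM in axin2-/- and 148, 203 and 171 CPM in nkd1-/- (-0.96 ± 0.20).

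The mesoderm genes mespab (-1.18 ± 0.21) and pcdh8 (-0.76 ± 0.19), a protocadherin gene, fell with the strains alike, and so did apela, the Apelin receptor ligand gene (-0.51 ± 0.15). mespab was at 37.3, 32.9 and 25.2 CPM in axin2-/- and 56.8, 90.8 and 68.6 CPM in nkd1-/-. The Nodal inhibitor gene lft1 (-0.52 ± 0.14) and the Vg1 ligand gene gdf3 (-0.40 ± 0.14) fell with a strain difference in the same direction, which at gdf3 was larger (-1.28 ± 0.14). gdf3 ran from -0.53 to -0.25 when single samples were left out, with an edgeR adjusted p of up to 0.153. tdgf1, the Nodal coreceptor gene, was higher at 350, 342 and 326 CPM in axin2-/- against 272, 243 and 258 CPM in nkd1-/-, with an opposite strain difference of -0.39 ± 0.08.

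mxtx2, a homeobox gene of the yolk syncytial layer that acts upstream of Nodal genes, had the largest rise of the list. It was at 78.5, 67.9 and 67.5 CPM in axin2-/-, against 22.5, 19.4 and 19.1 CPM in nkd1-/-. TL was at 51.6 to 56.1 CPM, Tu at 42.3 to 50.3 CPM and the double mutant at 10.4 to 19.0 CPM. No pair of the 5 groups overlapped, although the highest double mutant sample lay just below the lowest nkd1-/- sample. The mutants differed by 1.81 ± 0.17 (SE) on the log2 scale, with an edgeR adjusted p of 5.27e-07. The yolk syncytial layer is the nuclei-bearing layer of the yolk cell. Of its 6 tested markers, 3 were called (50%, against 37.3% of all genes), 2 higher and 1 lower. Their median log2 fold change was -0.03, and mxtx2 itself was 1 of the 2 higher. apoa1b, an apolipoprotein gene, was the one lower, at 0.81, 5.67 and 1.43 CPM in axin2-/- against 19.3, 50.3 and 25.2 CPM in nkd1-/-.

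Of 21 tested FGF pathway genes 5 were called (23.8%, against 37.3% of all genes), 1 higher and 4 lower, with a median of -0.16. The ligand gene FGF4 was at 7.64, 4.70 and 4.06 CPM in axin2-/-, against 2.62, 1.53 and 1.72 CPM in nkd1-/- (1.48 ± 0.29, edgeR adjusted p = 0.000749). All 4 genes that fell, FGFR3, SPRED1, SPRY4 and etv5b, lost their call without nkd1-/- replicate 2. In that refit 2 genes of the list were called (9.52%, against 30.6% of all genes), and both were higher. Of 17 early neural and ectoderm genes 5 were called (29.4%), 1 higher and 4 lower, with a median of -0.29. irx7 was at 22.3, 30.6 and 21.8 CPM in axin2-/- and 36.4, 62.9 and 46.1 CPM in nkd1-/- (-0.96 ± 0.22), and it alone of the 4 kept its call without nkd1-/- replicate 2, where SIX3, sox19b and ZIC2 (ENSDARG00000015554) lost theirs. The neural list then had 4 calls (23.5%, against 30.6% of all genes in that refit), 3 higher and 1 lower.

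Of 18 tested genes on the list of maternal factors and genome activation 7 were called (38.9%, near the 37.3% of all genes), 5 higher and 2 lower, with a median of -0.10. nanog, a maternal activator of the zygotic genome, was at 408, 338 and 451 CPM in axin2-/-, against 273, 122 and 191 CPM in nkd1-/-. TL was at 425 to 498 CPM, Tu at 337 to 509 CPM and the double mutant at 193 to 221 CPM. On the log2 scale the mutants differed by 1.03 ± 0.21 (SE), with an adjusted p of 0.000966 in edgeR's test.

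CCNA1, a maternal cyclin gene, was at 234, 238 and 319 CPM in axin2-/-, against 127, 64.8 and 101.4 CPM in nkd1-/-, with 176 to 190 CPM in TL and 200 to 290 CPM in Tu (1.43 ± 0.20, edgeR adjusted p = 3.85e-05). Without nkd1-/- replicate 2, 7 genes of the list were called (38.9%, against 30.6% of all genes in that refit). Of these, 4 were higher and 3 lower. ZAR1L and sox19b were lost, and lower genes not called with all samples made up the count. h1m, a maternal linker histone gene, was higher in the same direction as the strains (0.69 ± 0.14 and 0.60 ± 0.14). pou5f3, which acts with nanog, was not called (-0.08 ± 0.07). nkd1-/- replicate 2 was the lowest nkd1-/- sample for nanog, CCNA1 and h1m and the highest for msgn1, LEF1 and SOX17. Whether the samples differed in developmental time within the labelled stage was not tested.

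**Figure D5:**
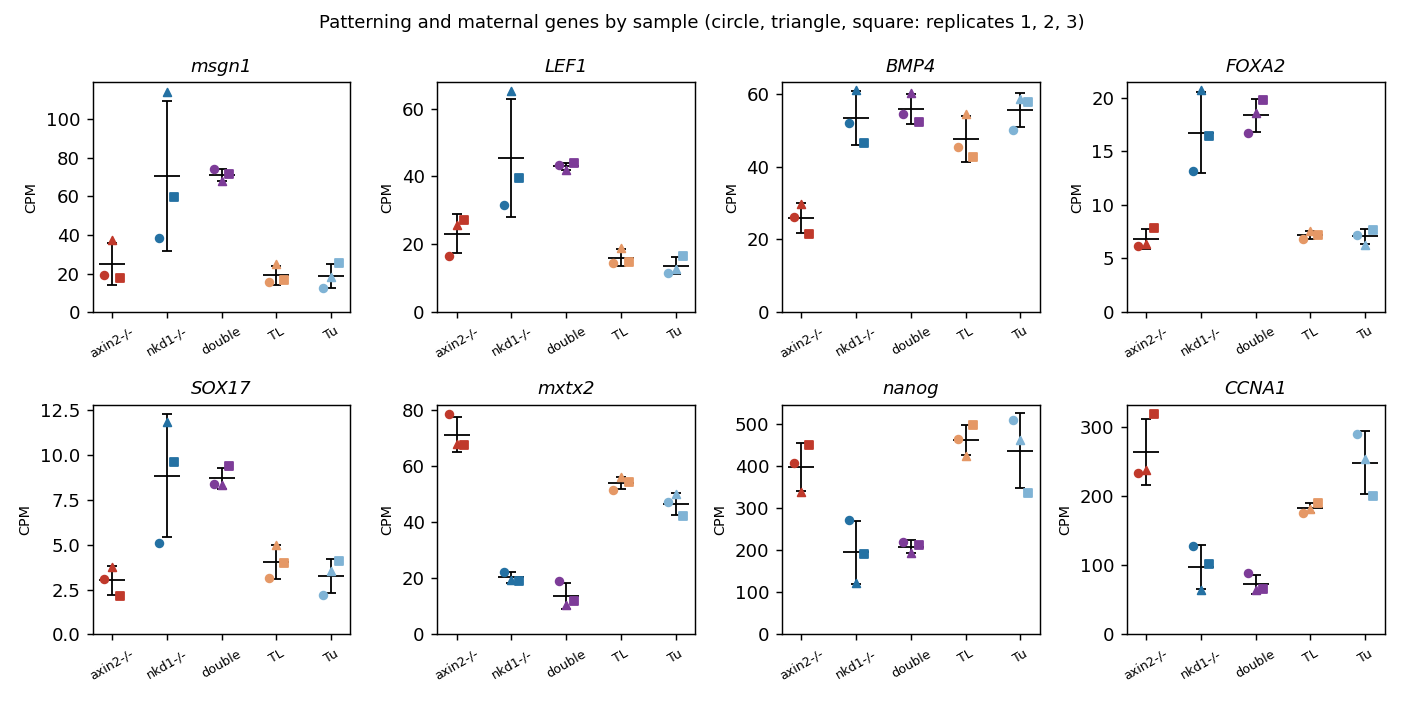
CPM (y axis) of 8 genes in every sample by group, with replicates 1, 2 and 3 as circle, triangle and square and bars for the mean and SD of 3 samples. nkd1-/- replicate 2, the blue triangle, is the highest nkd1-/- sample for msgn1 (114 CPM) and LEF1 (65.0 CPM) and the lowest for nanog (122 CPM), while for mxtx2 the 3 nkd1-/- samples lie together at 19.1 to 22.5 CPM.

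None of the 13 mitochondrially encoded genes was called by edgeR, with log2 fold changes of -0.39 to 0.33. By DESeq2 the count was 0 as well, and 1 gene had an unadjusted p under 0.05 in edgeR. Of 23 stress response genes 4 were called (17.4%), 3 higher and 1 lower in axin2-/-. HSPA5, an endoplasmic reticulum chaperone gene, was lower at 172, 112 and 128 CPM in axin2-/- against 268, 186 and 207 CPM in nkd1-/-, while HSPA8 (ENSDARG00000068992), a cytosolic chaperone gene, and casp8, a caspase gene, were higher by 0.28 and 0.64 on the log2 scale. Of 8 germ cell markers 3 were called (37.5%, near the 37.3% of all genes), all lower in axin2-/-. DND1, a germ cell RNA-binding protein gene, was at 9.50, 7.18 and 7.11 CPM in axin2-/- and 16.2, 12.1 and 15.1 CPM in nkd1-/-. Without nkd1-/- replicate 2, 4 of the 8 were called (50%, against 30.6% of all genes in that refit), 1 higher and 3 lower. The summed germ cell level was 297 to 563 CPM in axin2-/- and 591 to 677 CPM in nkd1-/-, with 439 to 536 CPM in TL and 458 to 529 CPM in Tu.

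The neighbours of the mutated genes were counted after the values had been seen, since a mutant line also carries the chromosome segment on which its allele was made. Only tested genes with a unique symbol that matched a RefSeq symbol could be placed, so nearer tested genes may have been skipped. The 25 such genes on each side of axin2 were taken in the gene order of RefSeq's GRCz12tu annotation. Of these, 22 of 50 were called (44%), 8 higher and 14 lower in axin2-/-. Around nkd1, 16 of 50 were called (32.0%), 12 higher and 4 lower. Both shares lie near the 37.3% of all genes.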

How the data were processed

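RNA sequencing counts were analysed for 15 samples of pooled zebrafish embryos. The values are whole-number counts per Ensembl gene (32520 genes), as deposited by the authors, with totals of 44098543 to 68135442 per sample. Per the labels' protocols, total RNA was made into libraries with the NEBNext Ultra II kit. The submitters' processing notes name edgeR 3.30.3 and GRCz11. The aligner, counter, strand setting and treatment of reads shared by copies are not given in the sources used here. Replicates differed by more than counting noise, with a chi-square per degree of freedom of 12.1 to 66.8 between pairs. Counting intervals and floors cover counting error only.

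All 15 samples entered 1 fit with 5 groups (edgeR 4.0.16, R 4.3.3, limma 3.58.1). Genes passed filterByExpr with a minimum count of 10 and a minimum total of 15, libraries were scaled by TMM, and the quasi-likelihood test was adjusted by Benjamini-Hochberg over 21614 genes. SE is the log2 fold change over the square root of F. The fit has 10 residual degrees of freedom. Distances are Euclidean over log2 CPM with a prior count of 2. The steps were tested on simulated counts.

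Genes named for the size of their difference were called and had a mean of at least 1 CPM over the 6 mutant samples. They did not overlap between the mutants and had a symbol that is not a clone identifier. They are the 8 largest rises and falls of the class alike. From the class same way 4 of each were taken, and from the class opposite way 3 of each. AXIN2, NKD1 and the called members of the lists were named without these limits, beside some list members that were not called. The members and lists were chosen with earlier results of these data known. Symbols came from a gene table that named 29201 of 32520 identifiers and are printed as given there, many in human style. Where a symbol with its a or b suffix was absent, all identifiers of the family symbol were taken. The listed genes notum1a, rnf43, lgr5, nog1, hesx1, her3 and hbbe1.1 had no match, a listed gene is not reported here, and 24 matched identifiers did not pass the filter. No coordinates are given, since the annotation used is of another build.

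Alternatives were DESeq2 1.42.0, its size factors, no filter, 12 samples only, a replicate block, a fold threshold, thinned counts, other bounds for alike strains and leaving out each replicate. Those for the lists were chosen after seeing the data.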

Additional observations from a re-analysis of the deposited data

Results flagged for a closer look

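The mutant difference and the strain difference departed from each other in 5576 of the 21614 genes tested. The test was of (axin2-/- minus nkd1-/-) minus (TL minus Tu) in edgeR's quasi-likelihood test. It equals (axin2-/- minus TL) minus (nkd1-/- minus Tu), so it asks whether the 2 mutant lines depart differently from their own strains. The lines carry different mutations, so it is not a test of an interaction between axin2 and nkd1. In 837 genes axin2-/- minus nkd1-/- and TL minus Tu were both called with opposite signs. These values are given without an explanation, and each group was 1 family.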

How the results depend on the processing

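No called gene named in the text or on a list changed sign under any alternative run. NKD1, which was not called, ran from -0.36 to 0.08 when single samples were left out. When calls also had to reach an absolute log2 difference of 1, 4444 genes were called between axin2-/- and nkd1-/- and 3749 between TL and Tu, with 1227 in the class same way, 982 in the class alike and 406 in the class opposite way. The list counts then stand beside 4444 of all 21614 genes tested. They were 1 of 20 for Wnt feedback, 7 of 35 for Wnt ligands and receptors, 6 of 30 for Wnt targets and 1 of 20 for the organizer. For BMP the count was 7 of 26, for mesoderm and endoderm 4 of 27, for FGF 1 of 21 and for neural genes 1 of 17. Maternal genes had 3 of 18 and stress response genes 0 of 23. The class alike held 1989 genes with a bound of 1.5-fold and 1510 when alike meant an unadjusted p of at least 0.5, so its size depends on that definition. DESeq2 called 7 of the 23 stress response genes, and 8734 genes in all. A fit of 12 samples called 3 of the 17 neural genes and 1 of the 13 mitochondrial genes, and 7637 genes in all.

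Leaving out each replicate in turn gave 6601 to 7954 genes between the mutants, 5333 to 5861 between the strains and 4522 to 5787 departures. The classes held 1937 to 2325 genes (same way), 2518 to 3549 (alike) and 630 to 871 (opposite way). List counts ran from 9 to 14 of 26 for BMP, 8 to 15 of 27 for mesoderm and endoderm, 1 to 7 of 21 for FGF and 2 to 5 of 17 for neural genes. They were 4 to 7 of 18 for maternal genes, 0 to 1 of 13 for mitochondrial genes and 3 to 7 of 23 for stress response. These stand beside the 6601 to 7954 genes called in all. Without nkd1-/- replicate 2 the share over all genes tested was 30.6%. Of the named and listed genes, 92 of 714 such refits lost the call and none reversed. All 92 losses were of listed genes, since no gene named for the size of its difference lost its call. The 714 also hold the refits of AXIN2 and NKD1, which had no call to lose. The maternal count was lowest without axin2-/- replicate 3. Causes were not tested.

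The replicate numbers did not pair the samples: the deviations of same-numbered axin2-/- and nkd1-/- samples correlated at 0.03, 0.14 and 0.06. With the replicate number as a block, 8235 genes were called between the mutants, with 2449, 3321 and 888 in the classes same way, alike and opposite way. The excess of the distance between the mutants over that within them kept its exact p of 0.1 in all runs, the smallest possible, which says nothing of stability. The undecided genes had a median of 0.65 CPM and a median SE of 0.56, and the part of depth in this was not tested.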
